A study of Mus musculus with 18 samples.

Results

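Dispersed genome translocations joined directly are junctions between a broken recombination substrate and scattered places in the mouse genome, with neither an inserted base nor a base shared by both ends. They were mapped by high-throughput genome-wide translocation sequencing (HTGTS), which reads outwards from a primer beside a known break, the bait, and records where the broken end was joined, the prey. A junction was a member if its prey lay neither on the substrate nor on chromosome 6, held fewer than 3 exact telomere repeat units on either strand and lay outside 5 windows of 0.4 Mb on chromosomes 2, 3, 4, 5 and 7, and if the prey's alignment began at the read base after the bait's last. Members were thus selected on the measured gap and on the prey's place and telomere units. Chromosome 6 holds the Igk light chain locus and the Tcrb locus, so joins to both were left out by this rule. The rule found 795 members among 30937 junctions. The same places without the gap criterion held 5701 dispersed junctions, of which 2386 had inserted bases and 2520 had microhomology, that is, bases that fit both ends.

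The cells were v-abl-transformed B cell lines of 129 mice, that is, early B cells transformed with the Abelson virus kinase, and all carried the pMX-INV substrate stably integrated. The 4 genotypes were CtIP A/A DNA-PKcs -/-, DNA-PKcs -/-, CtIP A/A and wild type (WT). Each had 2 libraries from G2 arrest (24 h of the Abl inhibitor STI571 at 3 µM, then 48 h of the CDK1 inhibitor RO3306 at 10 µM) and 1 library from G1 arrest (STI571 at 3 µM for 48 or 72 h). All groups therefore shared STI571, and the G1 and G2 libraries differed in agent and in time as well as in phase. The labels do not say whether replicates came from separate cultures, so p values may measure technical spread only, and they name no second line per genotype, so genotype and line cannot be told apart.

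The RAG nuclease cuts DNA beside recombination signal sequences, which begin with a heptamer whose consensus is CACAGTG, and leaves a hairpin-sealed coding end on one side and a blunt signal end on the other. In classical non-homologous end joining the kinase DNA-PKcs activates the nuclease Artemis, which opens the hairpin. CtIP promotes resection of broken ends, and in CtIP A/A the protein carries alanine at a conserved phosphorylation site. RAG can also cut at cryptic signals elsewhere in the genome, and a broken antigen receptor end joined to such a place gives a translocation.

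Of the 400 members whose prey was neither telomere-like nor pyrimidine-rich (kinds described below), 7 had an exact heptamer directly at the break on the side that was lost. This share was 1.75%, against 0.013% for a given position and strand of the genome. Among dispersed junctions with the same kind of prey, it was 3.63% (31 of 854) with insertions and 0.379% (8 of 2112) with microhomology. An exact heptamer at the break was therefore not particular to direct joins. These pooled shares were not tested. The 7 are shown because RAG cuts at the border of the heptamer. Each sequence is the mm10 reference from RefSeq's GRCm38.p6 assembly, with 20 bases of the kept prey side in lower case followed by the lost side, and capitals mark the heptamer.
Ralgps2, outside exons, WT G1, chr1:156897024-156897076, plus strand: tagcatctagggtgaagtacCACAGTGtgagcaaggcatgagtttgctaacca
Hsf5, outside exons, WT G1, chr11:87630084-87630136, plus strand: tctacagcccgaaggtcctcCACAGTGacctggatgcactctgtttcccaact
Ighv14-2, WT G2 1, chr12:113994436-113994488, minus strand: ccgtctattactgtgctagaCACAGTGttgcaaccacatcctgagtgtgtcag
Ighv1-5, WT G1, chr12:114513297-114513349, minus strand: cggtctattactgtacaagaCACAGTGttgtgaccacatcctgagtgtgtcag
Iglj1, WT G1, chr16:19063237-19063289, minus strand: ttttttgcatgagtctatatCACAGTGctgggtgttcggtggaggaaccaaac
Intergenic, CtIP A/A G2 1, chr2:75781793-75781845, minus strand: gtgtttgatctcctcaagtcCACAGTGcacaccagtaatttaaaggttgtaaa
Med13l, exon of a retained-intron transcript, WT G1, chr5:118719064-118719116, minus strand: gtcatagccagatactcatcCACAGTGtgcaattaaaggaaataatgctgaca
Ighv14-2 and Ighv1-5 are immunoglobulin heavy chain V segments, and both breaks lay at the segment's end with the heptamer beyond it. At Iglj1, a lambda light chain J segment, the break lay 8 bp outside the segment, so the heptamer stood between the break and the segment. This break was therefore not at the border of segment and heptamer. Outside these loci the breaks lay in Ralgps2, an exchange factor for Ral GTPases, in Hsf5, a heat shock factor family gene, in Med13l, a subunit of the Mediator kinase module, and between genes. All 7 were in libraries with DNA-PKcs, and their bait ends lay from -2 to 2 bp of the most frequent bait end.

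The members were of 3 kinds, which were defined after the data were seen. In 311 members the prey was telomere-like: at least 50% of its 6-base windows were within 1 base of a telomere repeat, although fewer than 3 units were exact. In 84 members the prey was pyrimidine-rich, with at least 85% pyrimidines or, on the other strand, purines. The other 400 members had prey of neither kind, here called other-sequence members. Examples of the repeat prey show what the rule let in, read from the break into the kept side with exact telomere units in capitals.
Telomere-like, intergenic, 3 members in 3 libraries, chr1:19986368-19986397, plus strand: ctaaCCCTAAccctgaCCCTAACCCTAAcc
Telomere-like, intergenic, 3 members in 3 libraries, chr19:61195362-61195391, minus strand: cctaaCCCTAAccctagCCCTAAcCCCTAA
Pyrimidine-rich, in Ncor1, 3 members in 3 libraries, chr11:62417406-62417435, minus strand: tctttttctttcttttctcttctctcctcc
The reference at such a place can hold more exact units than the read, since the rule counted units in the read. The median prey length was 30 bp in telomere-like, 45 bp in pyrimidine-rich and 63 bp in other-sequence members. The median share of prey bases that differed from the reference was 3.23% in telomere-like, 11.5% in pyrimidine-rich and 0% in other-sequence members. Prey under 30 bp were found in 152 of 311 telomere-like, 17 of 84 pyrimidine-rich and 25 of 400 other-sequence members. How uniquely the prey mapped was not tested, so the places of repeat prey are those that the alignment gave.

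CtIP A/A DNA-PKcs -/- gave 45 and 97 members in its G2 libraries and 190 in its G1 library. DNA-PKcs -/- gave 41 and 77 in G2 and 128 in G1. CtIP A/A gave 10 and 14 in G2 and 28 in G1, and WT gave 9 and 9 in G2 and 147 in G1. Library totals ran from 2381 to 7068 junctions in libraries without DNA-PKcs and from 289 to 2993 in libraries with it, so shares are used below. Telomere-like prey were 305 of the 578 members without DNA-PKcs and 6 of the 217 with it. Among all dispersed junctions, whatever their gap, they were 1306 of 3500 without and 54 of 2201 with DNA-PKcs. The split by DNA-PKcs was therefore not particular to direct joins. By library, 25, 42 and 66 members were telomere-like in CtIP A/A DNA-PKcs -/- (both G2 libraries, then G1) and 25, 63 and 84 in DNA-PKcs -/-, against 1, 0 and 0 in CtIP A/A and 2, 1 and 2 in WT. These members sit just under the limit of 3 exact units that removed telomere repeats, which left out 402 further directly joined junctions with exactly 3 units and 335 with 4, beside 245 members with 2 units, 64 with 1 and 486 with none. This pattern is therefore a description of where the rule's limit fell. Pyrimidine-rich prey were 52 members without and 32 with DNA-PKcs.

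**Figure D1:**
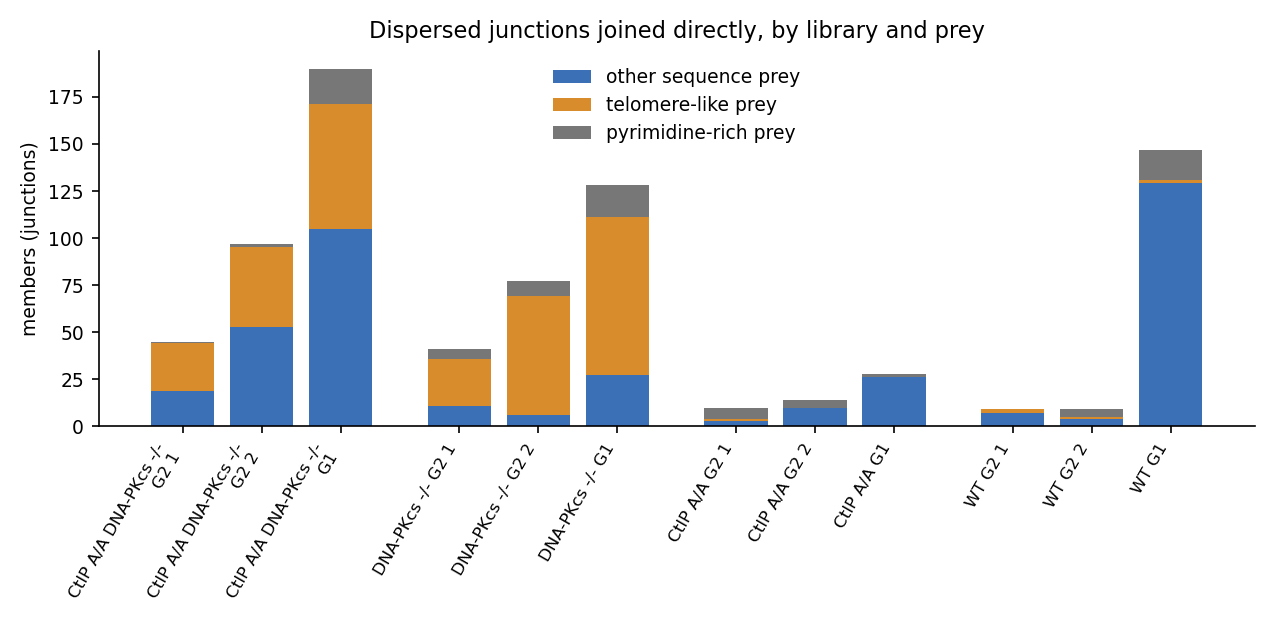
Number of directly joined dispersed junctions (members) in each of the 12 libraries, stacked by kind of prey, with the libraries of CtIP A/A DNA-PKcs -/- on the left and WT on the right. Telomere-like prey appear almost only in the 6 libraries without DNA-PKcs (305 of 311), as they do among all dispersed junctions (1306 of 1360). WT G1 holds 129 of its 147 members as other sequence.

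Directly joined junctions made up a larger share of dispersed junctions without DNA-PKcs than with it, a difference that passed its test but not under every alternative. The share was 10.5% and 19.2% in the G2 libraries and 14.0% in the G1 library of CtIP A/A DNA-PKcs -/-, and 19.5%, 29.1% and 17.4% in those of DNA-PKcs -/-. It was 8.47%, 8.38% and 11.2% in CtIP A/A and 8.57%, 10.3% and 9.97% in WT. Only the lowest library without DNA-PKcs (10.5%) fell within the range of the libraries with it. For the single G1 libraries the 95% Wilson intervals, which cover counting error only, were 12.3% to 16.0% in CtIP A/A DNA-PKcs -/-, 14.8% to 20.3% in DNA-PKcs -/-, 7.90% to 15.8% in CtIP A/A and 8.54% to 11.6% in WT. Averaged with equal weight over the 4 combinations of CtIP genotype and phase, the share was 17.6% without and 9.77% with DNA-PKcs, a difference of 7.87 percentage points (95% interval 2.51 to 15.7; exact two-sided permutation p = 0.0139, the smallest p that 144 arrangements allow; adjusted p = 0.0417 over 3 measures). Within sequencing run 1 the difference was 6.47 points and within run 2 it was 9.95 points. The call did not hold with the replicate number as a block, which in G2 coincides with the run (8.79 points, exact permutation p = 0.0312, adjusted p = 0.0938). It also did not hold, with an adjusted p of 0.0833 by exact permutation, in 7 of 12 fits that left out 1 library: each of the 4 G1 libraries, either G2 library of CtIP A/A, or the first G2 library of WT.

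The difference was smaller among other-sequence prey. There the directly joined share was 7.60%, 18.0% and 13.9% in CtIP A/A DNA-PKcs -/- (both G2 libraries, then G1) and 12.9%, 9.09% and 14.1% in DNA-PKcs -/-, against 4.76%, 7.81% and 13.4% in CtIP A/A and 8.33%, 9.52% and 10.7% in WT. The ranges overlapped. The averages over the same 4 combinations were 12.9% without and 9.82% with DNA-PKcs, a difference of 3.11 points (95% interval -0.20 to 8.90; exact permutation p = 0.0556, a comparison added after the data were seen). With any prey carrying even 1 exact telomere unit left out, the difference was 3.05 points (adjusted p = 0.0625, exact permutation).

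**Figure D2:**
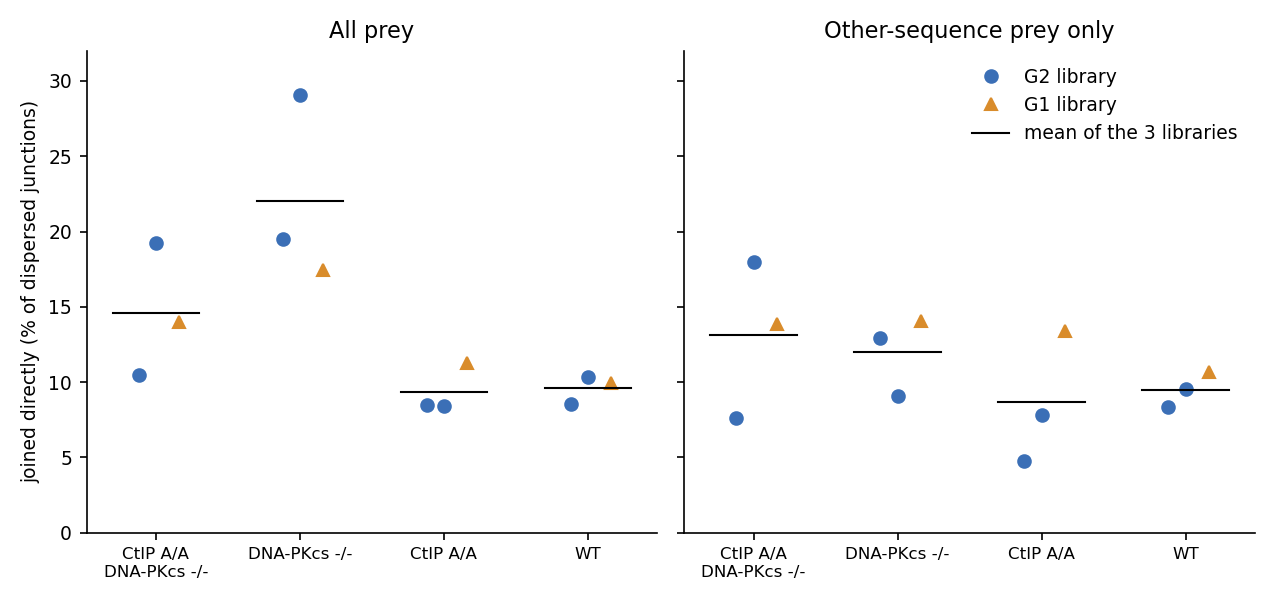
Percent of a library's dispersed junctions that were joined directly, for all prey (left panel) and for other-sequence prey only (right panel), by genotype; circles are G2 libraries, triangles G1 libraries and lines the mean of 3 libraries. In the left panel 5 of the 6 libraries without DNA-PKcs lie above all libraries with it, up to 29.1%; in the right panel the genotypes overlap.

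As a share of all junctions of a library the members averaged 2.41% without and 3.20% with DNA-PKcs over the same combinations (difference -0.79 points, 95% interval -2.02 to 1.54; exact permutation adjusted p = 0.50). The lowest libraries were the first of G2 in CtIP A/A DNA-PKcs -/- at 1.08% and in DNA-PKcs -/- at 1.12%, and the highest was WT G1 at 4.91%. Most junctions of the libraries without DNA-PKcs were telomere repeats or other genome joins, and with telomere repeats left out of the total the difference turned to 1.94 points, the libraries without DNA-PKcs being the higher (exact permutation adjusted p = 0.0208). With all junctions in the total, the difference was -0.68 points in run 1 and -0.47 points in run 2. In all 4 genotypes the second G2 replicate, sequenced in run 2, had a higher share than the first, by 0.52 to 2.34 points. The direction of the DNA-PKcs difference depended on what the members were counted against. In the total without telomere repeats, telomere-like prey stayed among the members. With other-sequence prey only and telomere repeats kept in the total, the difference was -1.76 points. Its 95% interval was -3.20 to 0.17 (exact permutation p = 0.111), in a comparison added after the data were seen.

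The CtIP comparison passed no test. The directly joined share of dispersed junctions averaged 12.1% in CtIP A/A and 15.3% in CtIP wild-type libraries over the 4 combinations of DNA-PKcs genotype and phase (difference -3.15 points, 95% interval -10.2 to 0.78; exact permutation adjusted p = 0.50). Members were 2.61% of all junctions in CtIP A/A and 3.01% in CtIP wild-type libraries (difference -0.40 points, 95% interval -1.70 to 1.24; exact permutation adjusted p = 0.50). Within runs the first difference was -4.58 points in run 1 and -3.47 points in run 2, and the second was 0.073 points in run 1 and -0.49 points in run 2.

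Between G2 and G1 arrest the directly joined share averaged 14.3% in G2 and 13.2% in G1 over the 4 genotypes (difference 1.10 points, 95% interval -5.06 to 8.44; exact permutation adjusted p = 0.691). Members were 2.24% of all junctions in G2 and 3.37% in G1 (difference -1.14 points, 95% interval -2.79 to 0.71; exact permutation adjusted p = 0.407). Run 2 alone held both phases, and there the first difference was 3.60 points and the second -0.34 points. For other-sequence members alone the share of all junctions was 1.07% in G2 and 2.57% in G1 (difference -1.51 points; exact permutation p = 0.0494, adjusted p = 0.296 over 6 measures added after the data were seen). The DNA-PKcs difference in the directly joined share did not pass a test of being larger in G2 than in G1 (5.52 points, exact permutation p = 0.431), nor did the CtIP difference pass one of depending on DNA-PKcs (-6.54 points, exact permutation p = 0.125).

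The bait end shows where the substrate's side of the join lay. It measures loss from the coding end only relative to a reference, here a frequent bait end and not a known coding end. Bait deletion was counted in bp from the most frequent bait end over all junctions, at base 1944 of the substrate, and is negative where the bait reached further. Over substrate junctions only, the most frequent end was base 1947. The median deletion was 8 bp in other-sequence, 34 bp in telomere-like and 108 bp in pyrimidine-rich members, pooled over genotypes that each kind drew on unequally. In other-sequence members it was 19 bp without DNA-PKcs (n = 221) and 1 bp with it (n = 179). In telomere-like members without DNA-PKcs it was 31 bp (n = 305), and in pyrimidine-rich members it was 108 bp without (n = 52) and 119 bp with DNA-PKcs (n = 32). Of the other-sequence members 34 ended at base 1943 and 34 at base 1944, and 173 of 400 (43.2%) lay within 5 bp of the most frequent end. The pyrimidine-rich members instead piled up at 2 neighbouring ends, 27 of 84 with a deletion of 108 bp and 13 with 107 bp, and these ends recurred in 8 and 6 libraries. Telomere-like members had their own recurrent ends, 31 with a deletion of 49 bp in a single library, 25 with 80 bp in 3 libraries and 25 with 8 bp in 3 libraries, the last within the range where other-sequence members were frequent.

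**Figure D3:**
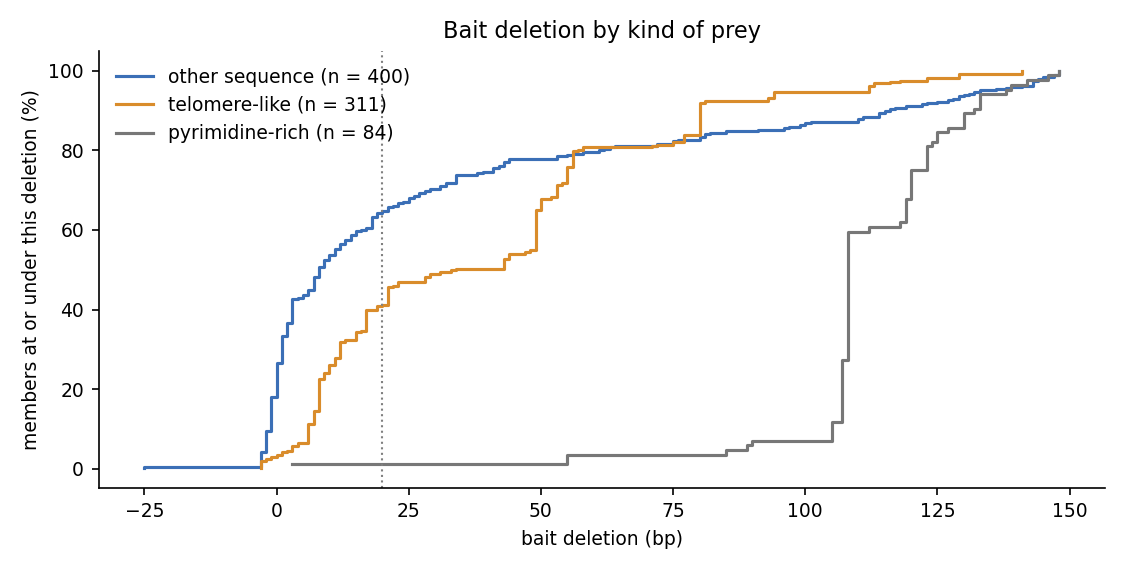
Cumulative percent of members by bait deletion in bp, for other-sequence (n = 400), telomere-like (n = 311) and pyrimidine-rich (n = 84) prey; the dotted line marks 20 bp. The other-sequence curve rises steeply around 0, the telomere-like curve climbs in steps, and the pyrimidine-rich curve jumps near 108 bp.

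A deletion of over 20 bp was found in 42.2% and 50.5% of members in the G2 libraries and 45.8% in the G1 library of CtIP A/A DNA-PKcs -/-, and in 73.2%, 39% and 96.1% in those of DNA-PKcs -/-. The share was 80.0%, 71.4% and 10.7% in CtIP A/A and 33.3%, 100% and 24.5% in WT. The libraries with DNA-PKcs spanned almost the whole range, and the 4 G2 libraries among them had only 9 to 14 members each. No comparison passed its test: the average was 61.1% without and 44.4% with DNA-PKcs (difference 16.7 points, 95% interval -45.2 to 53.3), 44.6% in CtIP A/A and 60.8% in CtIP wild type (difference -16.2, interval -43.1 to 29.1), and 61.2% in G2 and 44.3% in G1 (difference 16.9, interval -26.2 to 68.1). Their exact permutation adjusted p values were 0.514, 0.50 and 0.50. Within runs the DNA-PKcs difference was 1.03 points in run 1 and 6.18 in run 2, the CtIP difference was 7.86 in run 1 and -20.3 in run 2, and the phase difference was 21 in run 2. Among other-sequence members alone, the average was 56.5% without and 31.8% with DNA-PKcs (difference 24.6 points, 95% interval -41.1 to 58.4; exact permutation p = 0.264, a comparison added after the data were seen). In their G2 libraries the share was 36.8% and 37.7% in CtIP A/A DNA-PKcs -/- and 72.7% and 50% in DNA-PKcs -/-, against 33.3% and 70% in CtIP A/A and 14.3% and 100% in WT, and the groups overlapped. In G1 the deletion was over 20 bp in 45.7% in CtIP A/A DNA-PKcs -/- and 81.5% in DNA-PKcs -/-, against 3.85% in CtIP A/A (1 of 26) and 14.7% in WT (19 of 129).

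Other-sequence members without DNA-PKcs had the first 3 heptamer bases, CAC, on the lost side at or near the break less often than those with it in the pooled counts, and the averages over libraries did not pass the adjusted test. Directly at the break, CAC was found in 3 of 221 other-sequence members without DNA-PKcs and in 32 of 179 with it, of which 23 were in WT G1. A given position and strand of the genome holds CAC in 1.61% of cases. In the range from 0 to 5 bp into the lost side, a window chosen after the profile was seen, CAC began in 15.8%, 9.43% and 13.3% of other-sequence members in CtIP A/A DNA-PKcs -/- (both G2 libraries, then G1) and in 9.09%, 16.7% and 3.70% in DNA-PKcs -/-. It began there in 66.7%, 40.0% and 57.7% in CtIP A/A and in 57.1%, 0% and 62.0% in WT, where the library at 0% was the second of G2, with 4 such members. All other libraries with DNA-PKcs stood above all those without it. Pooled, these were 25 of 221 (11.3%) without and 105 of 179 (58.7%) with DNA-PKcs. Without WT G1, the libraries with DNA-PKcs had CAC directly at the break in 9 and at 0 to 5 bp in 25 of 50. In a window of the same width 15 to 20 bp from the break, the pooled shares were 9.50% without and 12.8% with DNA-PKcs.

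The averages over the 4 combinations were 10.6% without and 50.4% with DNA-PKcs for CAC at 0 to 5 bp (difference -39.8 points, 95% interval -57.2 to -3.84; exact permutation p = 0.0417, adjusted p = 0.111 over the 6 added measures). For CAC directly at the break they were 2.03% and 20.3% (difference -18.3 points, 95% interval -40.4 to 5.22; exact permutation p = 0.153). Both comparisons of genotypes were added after the data were seen. The test gives the small G2 libraries with DNA-PKcs, of 3 to 10 other-sequence members, the same weight as WT G1 with 129.

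**Figure D4:**
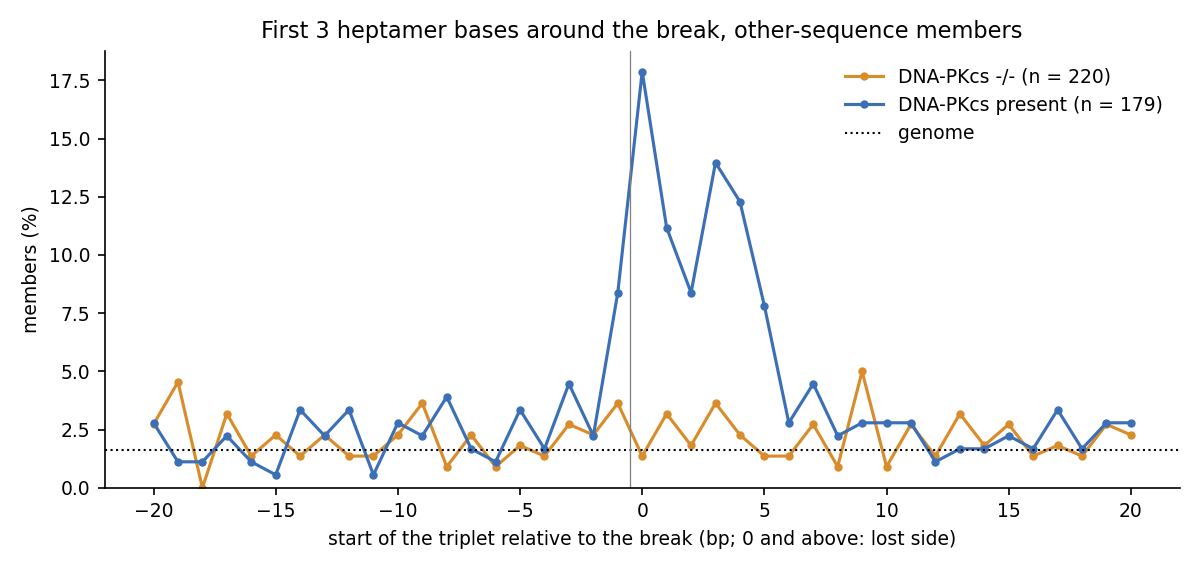
Percent of other-sequence members in which the first 3 bases of the RAG heptamer begin at each distance from the break in bp, with the lost side at 0 and above, for libraries without DNA-PKcs (220 members with flanking sequence) and with it (179 members); the dotted line is the genome's 1.61%. With DNA-PKcs the profile peaks at 17.9% directly at the break and stays raised to 5 bp, and without DNA-PKcs it has no such peak (1.36% at the break).

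The 3 members with CAC at the break in libraries without DNA-PKcs had bait deletions of 9 to 63 bp, and all 32 in libraries with DNA-PKcs had bait deletions between -3 and 2 bp. Bait ends near the most frequent end were not particular to CAC: among members lacking CAC at the break, the bait end lay within 5 bp of it in 34 of 218 (15.6%) without DNA-PKcs and in 107 of 147 (72.8%) with it. Of all 35 CAC members, 29 lay outside antigen receptor loci, and 8.06% of the 360 other-sequence members outside these loci had CAC at the break. The motif letters searched were CAC and CACAGTG, reading outwards from the break on the lost side and, separately, on the kept side. Directly at the break on the kept side, 17 of the 400 other-sequence members (4.25%) had CAC and 1 had CACAGTG. This kept-side count was not compared by DNA-PKcs. A match describes these bases only.

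Antigen receptor loci other than those on chromosome 6 held 40 members, 37 of them within 50 bp of a gene segment. The heavy chain locus Igh on chromosome 12 held 15, the lambda locus Igl on chromosome 16 held 13, Tcrg on chromosome 13 held 8 and Tcra/Tcrd on chromosome 14 held 4. In the Igh locus the members at Ighj4 and Ighj3 were all in CtIP A/A DNA-PKcs -/- libraries and had bait deletions of 8 to 13 bp, and the members at V segments (Ighv14-2, Ighv1-5, Ighv1-11, Ighv8-7 and Ighv1-76) were all in WT with bait deletions of -2 to 3 bp. At Iglv1, a lambda V segment, the breaks in CtIP A/A DNA-PKcs -/- lay at 19085026, 19085048 and 19085082, inside the segment, and those in CtIP A/A and WT lay at 19085018 and 19085017, at the segment's end. Segments were also shared: breaks beside Ighd1-1, a D segment, lay at 113482216 in CtIP A/A DNA-PKcs -/- G1 and at 113482200 in CtIP A/A G1. These are single junctions, and no test was made.

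Most genes were hit once. The 795 members lay at 741 distinct positions and hit 254 genes, 206 of them a single time. Genes with at least 3 members in at least 2 libraries were named, up to 15, in order of libraries. Of these, 10 owed most of their members to telomere-like or pyrimidine-rich prey, and in several of them those lay close together. In Pxylp1, a phosphatase of proteoglycan synthesis, 6 members in 6 libraries lay between 96853109 and 96853168 of chromosome 9, in Lama1, a laminin chain, 7 members lay between 67741447 and 67741585 of chromosome 17, and in Col4a6, a collagen IV chain, 7 members lay between 141276603 and 141276626 of the X chromosome. All of these members came from libraries without DNA-PKcs. Lpp, Sipa1l1, Kalrn, Plekha6, Capn8, Erbb4 and the predicted Gm47283 had 4 to 6 members each, in 3 or 4 libraries. Those in Erbb4, a receptor tyrosine kinase, ran from 68757626 to 69031875 of chromosome 1.

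Some genes were hit through other sequence alone. Cyth1, an exchange factor for ARF GTPases on chromosome 11, had 8 members at 8 positions across 37086 bp, 7 in WT G1 and 1 in CtIP A/A G1. Mef2d, a MADS-box transcription factor on chromosome 3, had 6 members across 26495 bp, all in WT G1 and all on the plus strand; it is in 1 library, lies outside the naming rule and was chosen after its values were seen. The bait deletion lay between -2 and 3 bp in all of these members but 1 in Cyth1, which had 91 bp. Ccr2, a chemokine receptor gene, had 3 members in WT, and Zeb2, a zinc finger repressor, had 3 members, 1 each in DNA-PKcs -/- G1, CtIP A/A G1 and WT G1. Gm10800, a predicted gene of 0.755 kb on chromosome 2, had 7 members in 5 libraries. Their bait deletions ran from 7 to 133 bp, and how uniquely their prey mapped was not tested. Gm20388, annotated over 4435 kb of chromosome 8, had 4 members in 2 libraries.

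No member lay in any of 8 translocation partner genes such as Myc and Bcl6, 4 genes listed as RAG off-targets or 18 early B cell genes (0 of 795, which allows a share of up to 0.377%). Ccnd2, in the translocation partner list, lies on chromosome 6. The rule left out that chromosome, so this gene could hold no member or dispersed junction. All 5701 dispersed junctions together had 7 in the translocation partner, 9 in the RAG off-target and 13 in the early B cell list. These counts overlap. Notch1 (6 junctions) is a translocation partner and a RAG off-target. Ikzf1 (3) is in the RAG off-target and early B cell lists, and Pax5 (1) in the translocation partner and early B cell lists. With so few hits, the absence from 795 members cannot show that members avoid these genes, and this was not tested.

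Compared with the genome, other-sequence members lay more often in and near genes and less often in repeats, as pooled descriptions. They were in gene bodies in 52.0% (208 of 400) against 39% of the genome, in exons in 11.0% against 3.62%, within 2 kb of a transcription start in 21.2% against 6.67%, and in soft-masked repeats in 18.8% against 36.6%. The last share follows in part from the definition of other sequence. The telomere-like and pyrimidine-rich members set aside were soft-masked in 76.8% and 97.6%, and the genome was not filtered in this way. Lying in and near genes was not particular to direct joins. Pooled other-sequence junctions with insertions were in gene bodies in 56.1%, in exons in 11.5% and within 2 kb of a transcription start in 26.3%. Those with microhomology stood at 49.8%, 7.15% and 15.3%. All 795 members together were soft-masked in 49.8% and in gene bodies in 44.5%. How far mapping of reads in repeats sets these shares was not tested.

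Set against the other dispersed junctions of the same libraries, directly joined members of all prey kinds passed no test. The lowest of 10 adjusted p values was 0.129 (exact sign-flip over 12 libraries), shared by soft-masked repeats, in 49.2% of directly joined against 64.0% of junctions with insertions, and by bait deletions over 20 bp, in 55.6% of directly joined against 64.7% with insertions and 67.9% with microhomology. The kinds of prey weigh on these averages, since telomere-like prey are repeats.

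Among other-sequence prey alone, in a comparison added after the data were seen, directly joined junctions differed from both other classes in repeats and in bait deletion. Soft-masked repeats held 20.6% of directly joined junctions, against 29.4% of those with insertions (difference -8.81 points, 95% interval -14.8 to -2.81, lower in 9 of 12 libraries) and 34.6% of those with microhomology (difference -14.0 points, interval -22.1 to -5.23, lower in 10 of 12). A bait deletion over 20 bp was found in 46.7% of directly joined junctions, against 37.0% of those with insertions (difference 9.74 points, interval 1.90 to 19.1, higher in 10 of 12) and 66.8% of those with microhomology (difference -20.1 points, interval -31.6 to -8.58, lower in 10 of 12). Adjusted p values were 0.0326, 0.0326, 0.0342 and 0.0326 in that order (exact two-sided sign-flip over 12 libraries, 10 tests). Gene bodies, transcription starts and CAC beside the break did not pass: CAC was at the break in 11.4% of directly joined junctions, against 9.17% with insertions (adjusted p = 0.852) and 3.40% with microhomology (adjusted p = 0.169, exact sign-flip, higher in 6 of 12). With microhomology the prey alignment includes the shared bases, so its break is not placed as in a direct join. Pooled over libraries, CAC was at the break on the lost side in 8.75% joined directly, 14.2% with insertions and 3.46% with microhomology. Direct joins thus stood below insertions in the pooled counts, the reverse of the library averages. To the average for direct joins, CtIP A/A G2 1 gave 66.7% from only 3 members. On the kept side, the pooled CAC shares were 4.25% joined directly, 5.39% with insertions and 9.09% with microhomology. The pooled shares were not tested.

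**Figure D5:**
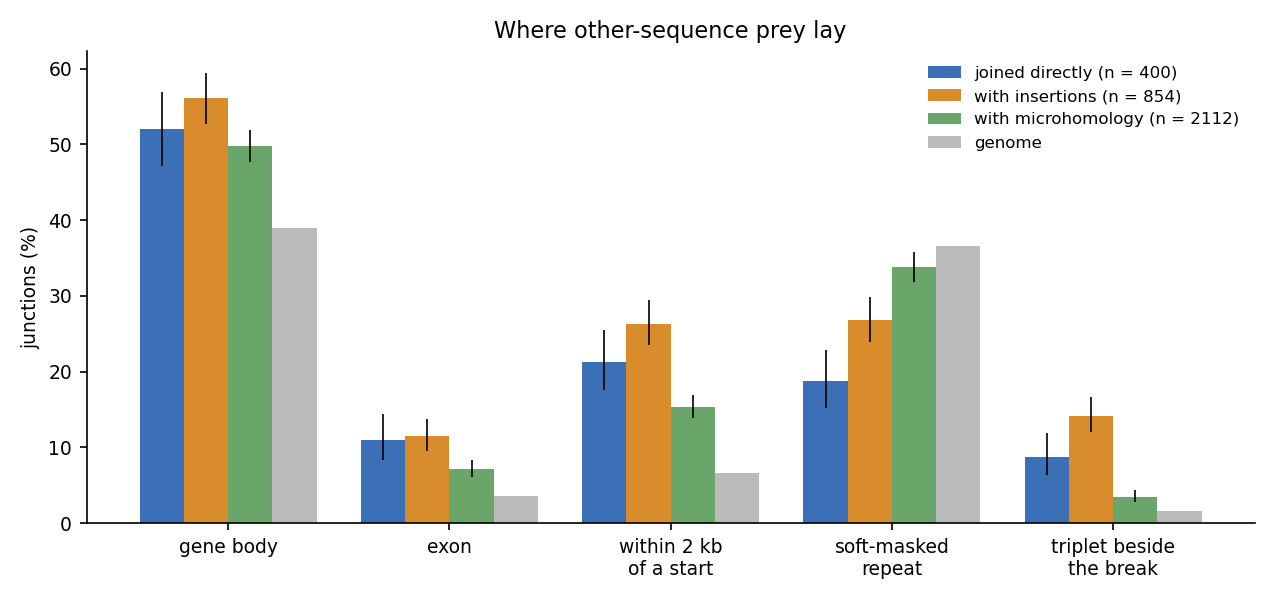
Percent of other-sequence junctions, pooled over 12 libraries, in gene bodies, exons, within 2 kb of a transcription start, in soft-masked repeats and with the first 3 heptamer bases directly beside the break on the lost side. Bars are the 3 classes of dispersed junctions and the genome, and lines are 95% Wilson intervals, for counting error only. Directly joined junctions sit at 18.8% in soft-masked repeats, against 26.8% with insertions, 33.8% with microhomology and 36.6% of the genome. Telomere-like and pyrimidine-rich sequence was set aside from the junctions but not from the genome.

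Recurrence of the same junction, with prey position, strand and bait end all equal, was rare in other-sequence and telomere-like members. Of 393 distinct other-sequence junctions, 3 were found in more than 1 library, each within a single genotype: one in N4bp3 on chromosome 11 in the G1 library and the first G2 library of CtIP A/A DNA-PKcs -/-, and one each on chromosomes 12 and 19 in the G1 library and the first G2 library of WT. Of 76 distinct pyrimidine-rich junctions, 6 were found in more than 1 library, 5 of them across genotypes, among them those in Ncor1, a corepressor gene, and Tecpr2. The bait deletion was 107 or 108 bp in those of Ncor1 and 105 bp in that of Tecpr2. Of 307 distinct telomere-like junctions, 2 recurred. The 3 other-sequence junctions shared by libraries of different sequencing runs were kept in both libraries.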

How the data were processed

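Coding-join HTGTS libraries of 12 samples were analysed; 6 samples with breaks made by I-PpoI are not analysed here. Per the labels' protocols, sonicated genomic DNA was amplified from a bait primer on the substrate, amplified again with a nested primer and cut with BstBI to remove germline substrate. Alignment was with Bowtie2 to mm10, per the submitters' processing notes. Not given in the sources used here are the junction caller, its filters and how duplicates were handled. The deposited tables hold other values than expression: per the file headers, 1 junction per line with prey chromosome, position and strand, bait end, read positions of both alignments and the read sequence, as base positions with no normalization. Depth was 289 to 7068 junctions per library.

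The gap was the prey's first read base minus the bait's last minus 1, so it depends on where both alignments end. Members and lists were chosen with earlier results of these data known, and prey kinds were defined after the data were seen. Genes came from GENCODE M21 and bases from GRCm38.p6, whose coordinates are those of mm10; over the first 20 prey bases, 93.0% of other-sequence members matched it exactly. A gene was named with at least 3 members in at least 2 libraries, up to 15 genes. Shares per library were compared by exact two-sided permutation of labels within strata (144, 144 and 81 arrangements for DNA-PKcs, CtIP and phase), with p values adjusted by Benjamini-Hochberg over 3 measures and intervals from inverting the test; classes were compared by exact sign-flips over libraries. Tests were checked only on simulated normal values of equal spread, which do not copy the unequal depth of these libraries. The threshold was 0.05. Run, read from the read names, was 1 for the first G2 replicates and 2 for the second G2 replicates and G1. Python 3.11.15, numpy 2.4.6, pandas 2.3.3, scipy 1.17.1, pysam 0.24.0 and matplotlib 3.10.9 were used. Alternatives are given in the closing section.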

Additional observations from a re-analysis of the deposited data

How the results depend on the processing

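The DNA-PKcs difference in the directly joined share (7.87 percentage points) kept its direction under every alternative run and lost its adjusted call under 4. It was 8.62 points (adjusted p = 0.125) with gaps from -1 to 1 counted as direct, 3.05 points with prey holding any exact telomere unit left out and 3.11 points with other-sequence prey only. With the replicate number kept as a block it was 8.79 points, with an adjusted p of 0.0938, from an unadjusted p of 0.0312, the smallest it allows. Among G2 libraries the replicate number coincides with the sequencing run, and the labels do not say what it means; the second replicate was higher in 3 of 4 genotypes for the directly joined share, and in 4 of 4 for the share of all junctions. For the other DNA-PKcs and CtIP results the block changed no call. No paired analysis was possible for phase because the labels give the G1 libraries no number. Leaving out 1 library at a time gave 6.68 to 9.57 points, with adjusted p values from 0.0417 to 0.0833; leaving out any G1 library, either G2 library of CtIP A/A or the first of WT raised it to 0.0833, and for the G1 libraries the unadjusted p of 0.0278 was the smallest the remaining arrangements allow. The other 8 condition results passed no test here, and with 1 library left out they ranged from -1.08 to -0.26 and -1.62 to 25 (DNA-PKcs: share of all junctions, bait deletion), -4.62 to -1.96, -0.69 to -0.017 and -24.5 to -4.81 (CtIP: directly joined share, share of all junctions, bait deletion) and -0.83 to 2.40, -1.43 to -0.68 and 0.91 to 35.9 points (phase, same order).

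Several differences turned round, and the causes were not tested. The DNA-PKcs difference in the share of all junctions was 1.94 points without telomere repeats in the total, and that in bait deletions over 50 bp was -5.67 points. The CtIP difference was 0.96 points with gaps from -1 to 1 and 0.42 points with other-sequence prey for the directly joined share, and 0.0065 and 0.077 points for the share of all junctions without telomere units and with other-sequence prey. The phase difference in the directly joined share was -2.72 points with gaps from -1 to 1, -0.16 without telomere units, -3.25 with other-sequence prey and -0.40 without pyrimidine-rich prey. The phase difference in CAC was -7.34 points at 0 to 5 bp, against 1.45 at the break. None of these passed its test except the first. Within run 1 alone the CtIP difference was 0.073 points for the share of all junctions and 7.86 for bait deletion, also turned round.

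Against the other classes, with prey of at least 30 bp and none aligned past the break site, the difference in soft-masked repeats from junctions with insertions was -19.6 points (exact sign-flip adjusted p = 0.0195). With other-sequence prey that difference was -8.81 and bait deletions turned to 9.74 points; against microhomology, repeats turned to -14.0, gene bodies to 2.91 and bait deletions stood at -20.1. Transcription starts against microhomology were -0.21 points in libraries with at least 20 junctions of each class. With 1 library left out, the class differences ranged, against insertions, from 1.25 to 3.34 (gene bodies), 1.09 to 5.06 (starts), -17.3 to -12.6 (repeats), -0.30 to 2.33 (CAC) and -10.7 to -6.85 (bait deletion), and, against microhomology, from -3.77 to -2.17, -2.04 to 2.64, 4.86 to 9.37, 2.01 to 4.01 and -14.5 to -9.96. For CAC at the break in other-sequence members they ranged from -26.6 to -9.98 (DNA-PKcs), -0.71 to 16.0 (CtIP) and -6.88 to 9.78 (phase). Depth limits the G2 libraries with DNA-PKcs, which had 9 to 14 members each. Alternatives by prey kind, by the bait end of substrate junctions and by the 0 to 5 bp range were chosen after seeing the data.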
